A study of Mus musculus with 6 samples.

Results

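The BCL2 family of apoptosis regulators was examined in *Cebpa*-mutant acute myeloid leukemia (AML) blasts with and without *Tet2*. The 10 genes were chosen by symbol from the family's textbook roles: the anti-apoptotic *Bcl2*, *Bcl2l1* and *Mcl1*, the effectors *Bax* and *Bak1*, and the BH3-only genes *Bid*, *Bcl2l11*, *Bad*, *Bbc3* and *Pmaip1*. They are 10 of the 53458 genes with a quantified transcript, and they hold 45 transcripts. Reads were summed over the transcripts of each gene, and all 10 passed the filter on low counts. RNA-seq was performed on blasts from 3 Cebpa-/p30 Tet2+/+ mice (19, 23 and 24) and 3 Cebpa-/p30 Tet2-/- mice (5, 7 and 8), with the strain labelled C57BL/6, to ask how loss of TET2, an enzyme that oxidizes methylated cytosine, alters this leukemia. In both groups 1 *Cebpa* allele was deleted and the other made only p30, the short form of this myeloid transcription factor, and the Tet2-/- group had floxed *Tet2* alleles deleted as well, while the Tet2+/+ group carried wild-type *Tet2*. Deletion was driven by Mx1-Cre, an interferon-responsive transgene induced with poly(I:C) in lethally irradiated congenic C57BL/6J.SJL recipients of transplanted bone marrow, and is not limited to a single blood cell type. Live donor-derived CD45.2+ CD3- B220- Ter119- cells were sorted from the bone marrow of leukemic recipients, with 1 library per mouse, and the labels carry no age.

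BCL2 family proteins decide whether the outer membrane of the mitochondrion stays intact. BAX and BAK1 form pores that release cytochrome c and start the caspase cascade. The anti-apoptotic members bind and restrain them, and the BH3-only proteins, which are made or activated under stress, either occupy the anti-apoptotic members or activate the effectors directly. The balance between the groups sets how close a cell is to apoptosis, myeloid cells and many AML blasts rely on MCL1 or BCL2 for survival, and drugs that mimic a BH3 segment act on this balance.

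The segment that ties the family together is the BH3 motif, through which the proteins bind one another, and its coding sequence is shown to make the members comparable. In each member except *Pmaip1*, whose sequence was not used here, the predicted protein of the most used coding transcript was searched for leucine, any 3 residues, glycine and aspartate, with serine or alanine also accepted in place of glycine. Each of the 9 proteins shown had 1 match, with serine in BAD and alanine in BBC3, and the core lay in a single exon in all 9. The lines below give the coding strand 5′ to 3′ from GENCODE M21 transcripts of GRCm38, with the 18 bases of the core in capitals and 15 bases on each side.
Bcl2 (anti-apoptotic, residues 94 to 99): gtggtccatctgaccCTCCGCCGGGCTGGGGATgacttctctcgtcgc
Bcl2l1 (anti-apoptotic, residues 90 to 95): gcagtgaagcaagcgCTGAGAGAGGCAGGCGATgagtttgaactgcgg
Mcl1 (anti-apoptotic, residues 194 to 199): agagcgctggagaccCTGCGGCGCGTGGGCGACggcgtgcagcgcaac
Bax (effector, residues 63 to 68): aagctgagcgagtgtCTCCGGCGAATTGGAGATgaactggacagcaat
Bak1 (effector, residues 76 to 81): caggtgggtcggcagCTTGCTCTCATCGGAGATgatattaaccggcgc
Bid (BH3-only, residues 90 to 95): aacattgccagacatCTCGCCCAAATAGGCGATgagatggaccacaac
Bad (BH3-only, residues 109 to 114): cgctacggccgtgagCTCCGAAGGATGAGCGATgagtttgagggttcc
Bcl2l11 (BH3-only, residues 150 to 155): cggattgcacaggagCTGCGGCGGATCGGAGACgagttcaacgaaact
Bbc3 (BH3-only, residues 141 to 146): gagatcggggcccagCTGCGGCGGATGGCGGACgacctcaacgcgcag

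The cores lie at chr1:106712584-106712601 for *Bcl2*, chr2:152829706-152829723 for *Bcl2l1*, chr3:95659436-95659453 for *Mcl1*, chr7:45466006-45466023 for *Bax* and chr17:27022540-27022557 for *Bak1*. Those of the BH3-only genes lie at chr6:120897298-120897315 for *Bid*, chr19:6950792-6950809 for *Bad*, chr2:128147150-128147167 for *Bcl2l11* and chr7:16313773-16313790 for *Bbc3*. The gene is on the plus strand for *Mcl1*, *Bad*, *Bcl2l11* and *Bbc3* and on the minus strand for the other 5.

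The libraries held between 13036643 and 32855343 estimated reads, the highest in mouse 5. All 10 myeloid blast markers had reads in every mouse, and their summed TPM (transcripts scaled by length and library) was between 5027 and 5786 in Tet2+/+ mice and between 6090 and 7475 in Tet2-/- mice. Without *Ly6c2* the sums were between 3433 and 3712 against 3057 and 3850 and overlapped, and by CPM *Mpo* and *Cd34* were lower without overlap in Tet2-/- mice. The summed TPM of mature neutrophil markers ran from 20213 in mouse 23 to 183499 in mouse 7, and the genotypes overlapped. That of erythroid markers was 339.7 in mouse 19 and between 9.47 and 38.0 in the other mice. The summed TPM of 8 basophil, mast cell and eosinophil markers was between 285 and 402 in Tet2+/+ mice and between 88.1 and 144 in Tet2-/- mice, with 2 of the 8 (*Fcer1a* and *Prss34*) at no more than 3 reads in any mouse. The summed TPM of 5 plasma cell markers was between 83.2 and 122 against 17.1 and 29.7, and that of 5 megakaryocyte and platelet markers between 14.8 and 24.1 against 6.23 and 10.5. The megakaryocyte and platelet sums rested on *Itga2b* and overlapped between the genotypes without it. Without *Jchain* the plasma cell sums were 29.2, 18.6 and 4.57 against 4.95, 1.65 and 3.90, with Tet2+/+ mice first. They overlapped only because mouse 5 stood above mouse 24, and *Derl3*, another plasma cell marker, was also lower without overlap. Without *Cpa3* the basophil, mast cell and eosinophil sums were between 111.5 and 124 against 52.0 and 111.1. *Tet2* itself stood at 73.6, 79.5 and 98.4 CPM (reads scaled to the library total with TMM factors) in mice 19, 23 and 24 and at 111, 79.4 and 96.7 CPM in mice 5, 7 and 8, so the whole-gene level did not separate the genotypes and does not check the labels. *Cebpa* had a log2 fold change of -0.80 (SE 0.35) and overlapped between the genotypes.

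No BCL2 family gene passed the test between genotypes. With edgeR's quasi-likelihood fit and p-values adjusted by Benjamini-Hochberg over all 22170 genes tested, 0 of 10 members had an adjusted p under 0.05, and 10 genes (0.0451%) did so across the transcriptome. At an unadjusted p under 0.05, *Mcl1* was higher and *Pmaip1* lower in Tet2-/- blasts, 2 of 10 members where 8.11% of all genes tested reached that level (3% higher, 5.12% lower). That count depended on single mice: it was 0 without mouse 19, 23 or 5, and 1 without mouse 24 (*Pmaip1*) or mouse 8 (*Mcl1*), and without mouse 7 it was 2, *Mcl1* and *Bak1*. It depended on scaling too: by library size alone it was 1, *Pmaip1*, where 1565 of the 22170 genes were lower and 258 higher. DESeq2 called 0 of 10 members as well, where it called 1.74% of all genes. The CPM of *Mcl1* and *Bak1* did not overlap between the genotypes, and both were higher without TET2. That is 2 of 10 members, where 16% of genes that averaged 1 CPM or more did not overlap in either direction (8.24% higher). The median log2 fold change of the members was 0.20, against 0.05 over genes averaging 1 CPM or more (0.05 for the members without mouse 8), and 7 of 10 members were positive where 55.7% of those genes were. In bulk RNA, fewer cells of a type and less RNA per cell cannot be told apart.

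**Figure D1:**
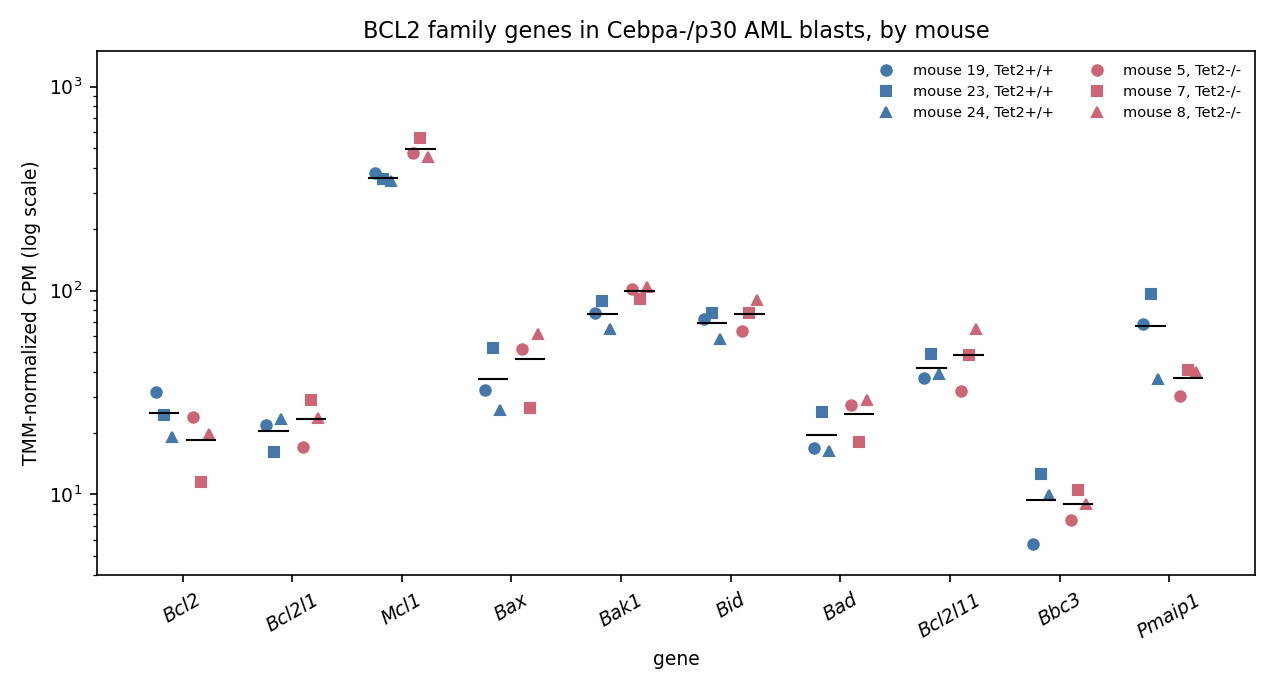
TMM-normalized CPM (log axis) of the 10 genes in each mouse, with Tet2+/+ mice in blue, Tet2-/- mice in red and a line at each group's mean. *Mcl1* stands above all other members in every mouse, and the groups do not overlap for *Mcl1* and *Bak1*.

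*Mcl1* (chr3:95658788-95663176, plus strand) encodes a short-lived anti-apoptotic protein that myeloid progenitors and neutrophils depend on. Its level was 374.9, 351 and 343 CPM in Tet2+/+ mice 19, 23 and 24 and 473.0, 560.3 and 454 CPM in Tet2-/- mice 5, 7 and 8. Every Tet2-/- mouse was above every Tet2+/+ mouse, and the Tet2+/+ mice were the more alike, with a coefficient of variation of 4.62% against 11.4%. The means were 356 ± 16.5 and 496 ± 56.7 CPM (SD, n = 3 each), and the log2 fold change was 0.48 (SE 0.18, 95% interval 0.06 to 0.89) with an adjusted p of 0.592 by edgeR's quasi-likelihood fit (Benjamini-Hochberg). The same order held in TPM, with 63.8, 67.3 and 65.3 against 77.3, 93.7 and 80.2, and in CPM scaled by library size alone, with 373, 388 and 374 against 455, 486 and 453.0. The exact permutation test of log2 CPM gave p = 0.1, the smallest that 3 against 3 mice allow. The summed TPM of the basophil, mast cell and eosinophil markers was lower without overlap in Tet2-/- mice. So were *Jchain* and *Itga2b* among the plasma cell and the megakaryocyte and platelet markers. Among the blast markers, *Ly6c2* was higher and *Mpo* and *Cd34* were lower without overlap. Mature neutrophil markers overlapped between the genotypes, but their sum was highest in mouse 7, which also had the highest *Mcl1*. The relation of *Mcl1* to the neutrophil markers is given below, and the part of the other markers in the *Mcl1* values was not tested.

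*Bcl2l1* (chr2:152780668-152831728, minus strand) encodes BCL-XL, which protects erythroid cells and platelets in particular. Its level was 21.9, 16.1 and 23.3 CPM in Tet2+/+ mice and 17.1, 29.1 and 23.8 CPM in Tet2-/- mice. The groups overlapped, with mice 23 and 5 lowest and mouse 7 highest, and the log2 fold change was 0.19 (95% interval -0.42 to 0.81). It was near 0 without mouse 7 and 0.37 without mouse 5. *Bcl2* (chr1:106538178-106714274, minus strand) encodes the founding member of the family and is the target of venetoclax, a BH3-mimetic drug used in AML. It stood at 31.7, 24.5 and 19.01 CPM in Tet2+/+ mice and 23.9, 11.4 and 19.8 CPM in Tet2-/- mice. The lowest value was that of mouse 7, which also had the highest *Mcl1* and *Bcl2l1*, and the highest that of mouse 19. The log2 fold change of *Bcl2* was -0.45 (95% interval -1.21 to 0.32), with an adjusted p of 0.770 by edgeR's quasi-likelihood fit (Benjamini-Hochberg), and with 1 mouse left out it ran from -0.69 without mouse 5 to -0.19 without mouse 7.

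Within each mouse, *Mcl1* was set against *Bcl2* as a ratio of TPM. Blasts of Tet2+/+ mice 19, 23 and 24 held 25.2, 30.3 and 38.9 times as much *Mcl1* as *Bcl2*, and those of Tet2-/- mice 5, 7 and 8 held 41.8, 104 and 49.1 times as much. The groups did not overlap, but mice 24 and 5 were close, and mouse 7 stood far above the rest. On the log2 scale the means were 4.95 ± 0.31 and 5.90 ± 0.70 (SD, n = 3 each), a difference of 0.95 that is given without a test. By TPM, *Bcl2l1* exceeded *Bcl2* by 2.61, 2.98 and 4.21 times in Tet2+/+ mice and by 2.90, 11.3 and 4.31 times in Tet2-/- mice. As CPM per kb of the longest coding transcript these ratios were lower, at 1.93, 1.84 and 3.43 against 2.01, 7.13 and 3.37, and as reads, without regard to length, at 0.691, 0.657 and 1.23 against 0.718, 2.54 and 1.203. The groups overlapped on each scale, and only the ratio of mouse 7 lay outside the range of the other mice by a wide margin.

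*Bax* (chr7:45461697-45466898, minus strand) encodes the effector that moves from the cytosol to mitochondria. Its level was 32.5, 52.4 and 26.0 CPM in Tet2+/+ mice and 51.5, 26.6 and 60.9 CPM in Tet2-/- mice. The spread within each group, with coefficients of variation of 37.2% and 38.2%, was wider than the difference between the groups, and the log2 fold change was 0.33 (95% interval -0.55 to 1.21). With 1 mouse left out it ran from 0.080 without mouse 8 to 0.64 without mouse 23. *Bak1* (chr17:27019810-27029009, minus strand) encodes the effector that resides in the outer mitochondrial membrane, where MCL1 and BCL-XL hold it. Its level was 77.8, 88.4 and 64.5 CPM in Tet2+/+ mice and 102, 91.2 and 105 CPM in Tet2-/- mice. The groups did not overlap, although mice 23 and 7 differed by little, and the means were 76.9 ± 12.0 and 99.1 ± 7.02 CPM (SD, n = 3 each). The log2 fold change of *Bak1* was 0.37 (SE 0.17, 95% interval -0.04 to 0.77), with an adjusted p of 0.644 by edgeR's quasi-likelihood fit (Benjamini-Hochberg). In TPM, and in CPM scaled by library size alone, the *Bak1* groups overlapped. The kit did not keep strand, and 25.5% of the exonic bases of *Bak1* are shared with *Ggnbp1* on the opposite strand, so reads of the shared bases cannot be told apart.

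Among the BH3-only genes, *Bid* (chr6:120891930-120916853, minus strand) links death receptors to mitochondria once caspase-8 has cut its protein. It stood at 72.3, 77.6 and 58.0 CPM in Tet2+/+ mice and 63.2, 77.4 and 89.6 CPM in Tet2-/- mice. The groups overlapped, and the log2 fold change was 0.15 (95% interval -0.31 to 0.61), or 0.021 without mouse 8. *Bcl2l11* (chr2:128126038-128162547, plus strand) encodes BIM, which binds all anti-apoptotic members and is induced when growth factors are withdrawn. Its level was 37.3, 49.0 and 39.2 CPM in Tet2+/+ mice and 32.1, 48.2 and 65.0 CPM in Tet2-/- mice, so that the lowest and the highest values both came from Tet2-/- mice. The log2 fold change of *Bcl2l11* was 0.21 (95% interval -0.44 to 0.86), and it was -0.060 without mouse 8 and 0.43 without mouse 5.

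*Bad* (chr19:6941861-6951899, plus strand) encodes a sensitizer that growth factor signaling switches off by phosphorylation. Its level was 16.8, 25.3 and 16.3 CPM in Tet2+/+ mice and 27.3, 18.1 and 29.2 CPM in Tet2-/- mice. The order of the mice resembled that of *Bax*, with mice 23, 5 and 8 high in both, and the log2 fold change was 0.35 (95% interval -0.30 to 1.001), running from 0.22 without mouse 8 to 0.57 without mouse 23. *Bbc3* (chr7:16308393-16318205, plus strand) encodes PUMA, a direct target of p53, and was the member with the fewest reads, 95 to 237 per library. Its level was 5.68, 12.5 and 9.93 CPM in Tet2+/+ mice and 7.498, 10.5 and 9.01 CPM in Tet2-/- mice. All 3 Tet2-/- values lay inside the Tet2+/+ range, and the log2 fold change was -0.06 (95% interval -0.87 to 0.75), or 0.18 without mouse 23.

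*Pmaip1* (chr18:66458533-66465565, plus strand) encodes NOXA, which binds MCL1 selectively and promotes its degradation. Its level was 68.6, 95.9 and 36.8 CPM in Tet2+/+ mice and 30.5, 40.9 and 39.9 CPM in Tet2-/- mice. Mice 19 and 23 were high, while Tet2+/+ mouse 24 lay among the Tet2-/- mice, so the groups overlapped. The means were 67.1 ± 29.6 and 37.1 ± 5.73 CPM (SD, n = 3 each). The log2 fold change was -0.86 (SE 0.34, 95% interval -1.66 to -0.06), the largest in size among the members, with an adjusted p of 0.604 by edgeR's quasi-likelihood fit (Benjamini-Hochberg). It rested in part on mouse 23: the log2 fold change was -0.52 without mouse 23 and -1.15 without mouse 24. Scaled by library size alone, the values were 68.2, 106 and 40.1 CPM against 29.4, 35.4 and 39.8 CPM and no longer overlapped, mice 24 and 8 being nearly level. The part of the markers with lower sums in Tet2-/- mice, given above, in the *Pmaip1* values was not tested.

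**Figure D2:**
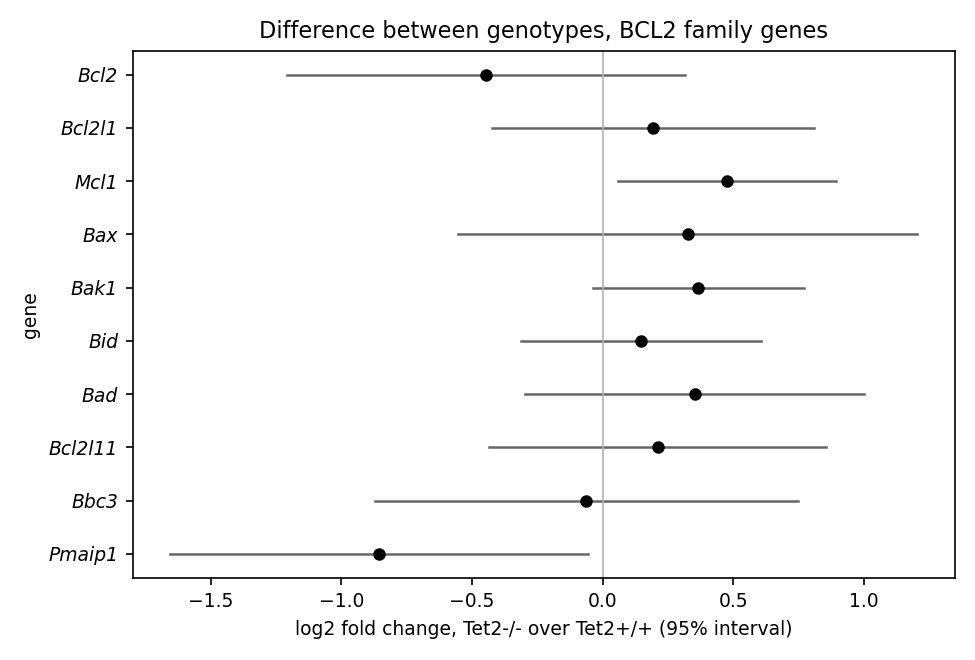
Log2 fold change of Tet2-/- over Tet2+/+ blasts for the 10 genes (points) with 95% intervals from the edgeR fit (bars). The intervals of *Mcl1* (0.06 to 0.89) and *Pmaip1* (-1.66 to -0.06) leave out 0 before adjustment, and the other 8 include it.

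Levels were compared between genes per length, as CPM per kb of each gene's longest coding transcript, a scale chosen after the values were seen. TPM could not serve for *Bax*: Salmon gave between 8.88% and 13.0% of *Bax* reads to *Bax*-204, a transcript of 222 bases, and the mean effective length of *Bax* over its transcripts was 85.4 bases, which placed *Bax* first by TPM. Per kb, *Mcl1* led with a mean of 125 over the 6 mice (range 100 to 164) and did not overlap the next member. *Bax* (mean 37.9, range 23.6 to 55.4), *Bak1* (mean 36.9, range 27.0 to 43.8) and *Bid* (mean 33.4, range 26.5 to 41.0) followed, with ranges that overlapped. *Pmaip1* came next with a mean of 19.7 (range 11.5 to 36.2) and *Bad* with 15.3 (range 11.2 to 20.1). The lower levels were those of *Bcl2l11* (mean 8.96), *Bcl2l1* (mean 8.53), *Bbc3* (mean 5.06) and *Bcl2* (mean 3.02), and each of these ranges overlapped the next. The order therefore separated *Mcl1* from the rest, but not neighbors further down. *Bcl2*, the lowest of the 10, ranged from 1.59 in mouse 7 to 4.41 in mouse 19.

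**Figure D3:**
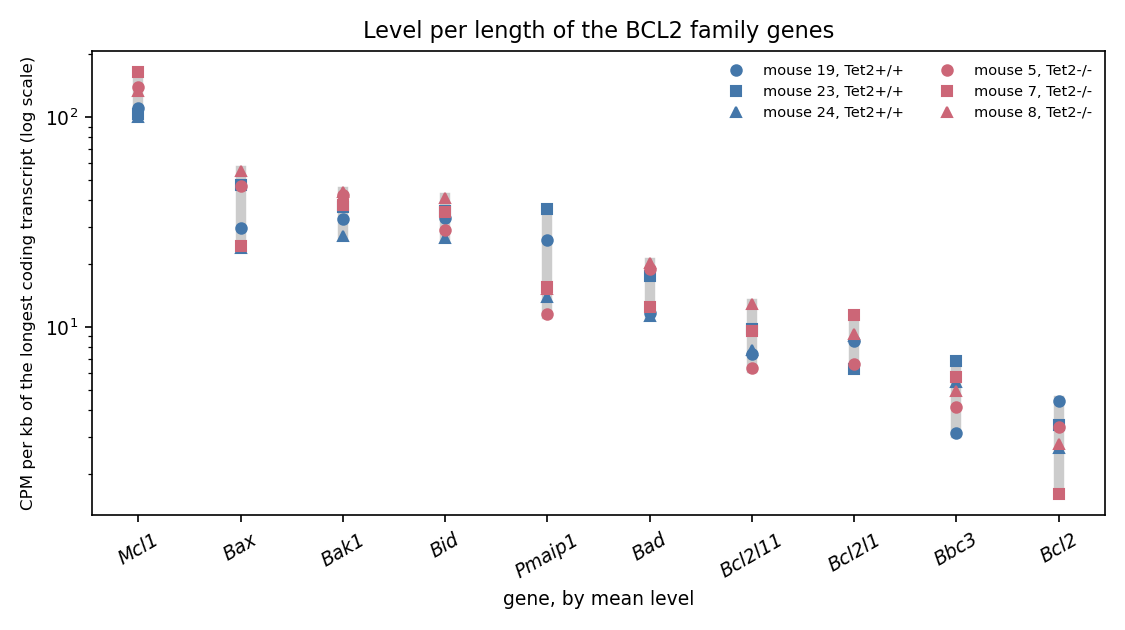
CPM per kb of the longest coding transcript (log axis) for the 10 genes in each mouse, in order of the mean over the 6 mice, with a gray bar over the range. *Mcl1* lies between 100 and 164 in all mice, and neighbors after it overlap.

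On the same scale, the summed anti-apoptotic members stood at 0.856, 0.590 and 0.971 times the summed pro-apoptotic members in Tet2+/+ mice and at 0.933, 1.25 and 0.750 times in Tet2-/- mice. By TPM, where *Bax*-204 enters with its short effective length, the ratios were 0.251, 0.149 and 0.339 against 0.225, 0.432 and 0.172, and as reads they were 1.38, 0.977 and 1.54 against 1.64, 1.92 and 1.25. The level of this balance, and whether it lay above 1, thus depended on the scale. On each scale the groups overlapped, and mice 23 and 8 had the lowest ratios of their groups. *Mcl1* carried most of the anti-apoptotic sum in every mouse.

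Transcripts were examined because several members make isoforms with different ends or reading frames. Of the 45 member transcripts, 26 had a mean of at least 1 TPM, and 0 of these passed limma's test on log2(TPM + 1) with Benjamini-Hochberg adjustment, where 0.0776% of all 34784 transcripts did. At an unadjusted p under 0.05 the count was also 0 of 26 (6.77% of all transcripts), and edgeR on transcript counts called 0, with 2 of 39 (5.28% of all transcripts in that fit) at that level. *Mcl1* and *Pmaip1* each had 100% of their reads on 1 coding transcript (*Mcl1*-201 and *Pmaip1*-201), *Bcl2*-201 held 97.0% to 98.1% of *Bcl2* reads, and *Bid*-201 91.6% to 96.8% of *Bid* reads. For these members a gene level is thus nearly that of 1 isoform. *Bcl2l11*-205 held a mean of 78.0% of *Bcl2l11* reads and *Bcl2l11*-202 12.2%, and *Bcl2l1*-201 held 74.3% and *Bcl2l1*-202 11.9% of *Bcl2l1* reads. *Bad*-202 led *Bad* with a mean of 60.0%, and *Bad*-201 received no reads in mouse 19 but 16.5% to 29.7% in the other 5 mice.

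Isoform shares were then compared between the genotypes for the 17 member transcripts with a mean share of at least 10% and below 100%. For 3 of them the shares did not overlap, where 12.9% of such transcripts of genes averaging 1 CPM or more did not. *Bax*-201, the main coding isoform, held 30.5%, 33.5% and 29.6% of *Bax* reads in Tet2+/+ mice and 34.4%, 42.6% and 37.4% in Tet2-/- mice. The shares of *Bax*-201 did not overlap, and the exact two-sided permutation test gave p = 0.1, the smallest possible. The share of *Bad*-204 was lower without overlap in Tet2-/- mice, with means of 14.9% ± 1.71 and 11.4% ± 1.28 (SD, n = 3 each), and that of *Bcl2*-201 higher by less than 1 percentage point, each with an exact permutation p of 0.1. Of *Bax*, 21.9% of reads at most were on a transcript that shares its sequence with *Gm45808*, and their origin is uncertain. *Bbc3*-203, annotated as a retained intron, took 50.9%, 31.4% and 32.3% of *Bbc3* reads in Tet2+/+ mice and 43.5%, 40.4% and 46.2% in Tet2-/- mice. The *Bbc3* groups overlapped, with mouse 19 highest.

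*Bak1* was the member with the largest share on a transcript not annotated as coding. *Bak1*-201, annotated for nonsense-mediated decay, held 59.1%, 65.1% and 68.2% of *Bak1* reads in Tet2+/+ mice and 67.7%, 62.4% and 62.9% in Tet2-/- mice, and the coding *Bak1*-202 nearly all the rest. The share on coding transcripts was 35.8% ± 4.61 in Tet2+/+ and 35.7% ± 2.95 in Tet2-/- mice (SD, n = 3 each, exact permutation p = 1), a difference of -0.16 percentage points. *Bak1*-201 contains a 20-base exon (chr17:27021663-27021682, minus strand, GRCm38) that *Bak1*-202 lacks, and its annotated coding sequence is 453 bases long against 627. The sequences of both junctions, from GENCODE M21 transcripts, show the exon in capitals with 30 bases on each side.
Bak1-201: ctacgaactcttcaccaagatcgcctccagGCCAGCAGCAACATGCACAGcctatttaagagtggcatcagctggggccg
Bak1-202: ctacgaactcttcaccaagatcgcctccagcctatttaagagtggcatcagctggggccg
The first exons of the 2 transcripts also differ, by 431 bases, and the estimated shares use reads from all differing stretches, so they are not a count of reads across this exon.

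**Figure D4:**
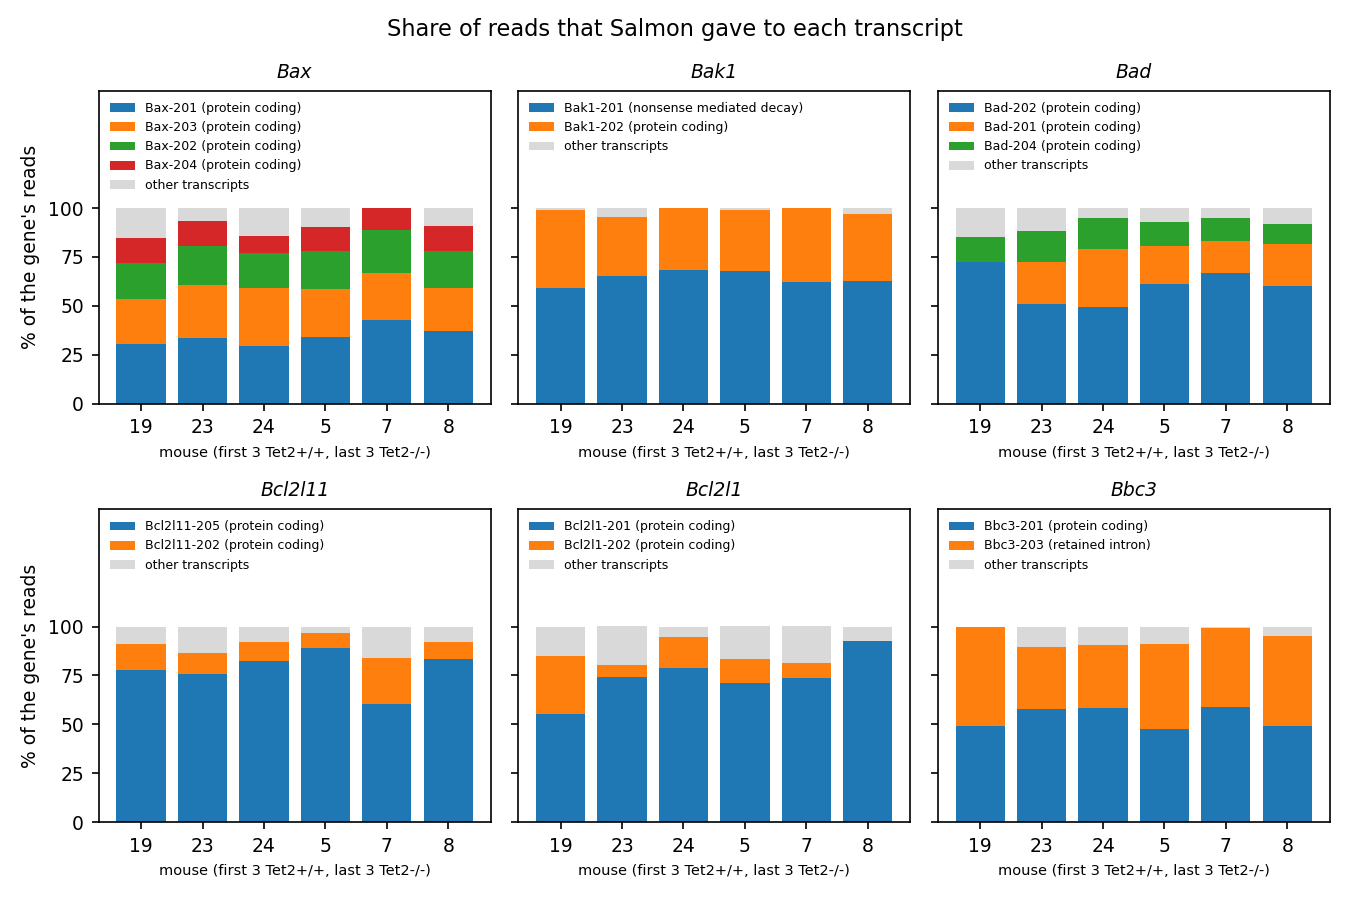
Share of each gene's reads (percent) that Salmon gave to each transcript with a mean share of at least 10%, stacked per mouse, for the 6 members with more than 1 such transcript. *Bak1*-201 holds 59.1% to 68.2% of *Bak1* reads in the 6 mice, and *Bax* reads are spread over 4 coding transcripts.

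The rest of the apoptosis pathway was read from a list of 48 genes, of which 45 passed the filter. *Bcl2l10*, *Bok* and *Hrk* had too few reads. None of the 45 had an adjusted p under 0.05 by edgeR's quasi-likelihood fit (Benjamini-Hochberg), 3 were higher and 3 lower at an unadjusted p under 0.05 (background 3% and 5.12%), and DESeq2 called 2, *Tnfrsf1a* and *Bcl2a1b* (1.74% of all genes). The median log2 fold change was 0.10, with 27 of 45 positive, where 55.7% of genes averaging 1 CPM or more were positive. In CPM, 8 of the 45 were higher and 3 lower without overlap, where 16% of genes averaging 1 CPM or more did not overlap.

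*Tnfrsf1a*, the main receptor for tumor necrosis factor, stood at 138, 124 and 134 CPM in Tet2+/+ mice and at 195, 219.6 and 196 CPM in Tet2-/- mice. The groups did not overlap, and the log2 fold change was 0.62 (SE 0.15) with an adjusted p of 0.364 by edgeR's quasi-likelihood fit (Benjamini-Hochberg) and 0.0145 by DESeq2. *Birc5*, which encodes survivin and is expressed in dividing cells, was at 61.1, 38.1 and 46.3 CPM in Tet2+/+ mice against 83.2, 74.6 and 70.6 CPM in Tet2-/- mice. This gene did not overlap either, with a log2 fold change of 0.65 (SE 0.21) and an unadjusted p of 0.0158 in the edgeR fit. *Bcl2l13*, a mitochondrial relative of the family, had a log2 fold change of 0.45 (SE 0.17, unadjusted p of 0.0361 in the edgeR fit) without overlap. Its exons share 628 bases with *Bid* on the opposite strand, where reads of the 2 genes cannot be told apart.

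On the lower side stood *Bcl2a1b* and *Bcl2a1a*, copies of the NF-kB-responsive anti-apoptotic gene A1, and *Bcl2l14*. *Bcl2a1b* was at 6.58, 22.4 and 26.1 CPM in Tet2+/+ mice and 6.36, 1.80 and 1.95 CPM in Tet2-/- mice. Mice 19 and 5 were almost level while the other 2 Tet2+/+ mice were far above the other 2 Tet2-/- mice, and the log2 fold change was -2.42 (SE 0.69), with an adjusted p of 0.473 by edgeR's quasi-likelihood fit (Benjamini-Hochberg) and 0.0176 by DESeq2. *Bcl2a1a* was at 2.21, 4.98 and 20.6 CPM against 3.80, 0.836 and 0.760 CPM. Mouse 24 was far above the rest and the groups overlapped, with a log2 fold change of -2.33 (SE 0.98) that was -0.98 without mouse 24 and -3.55 without mouse 5. For *Bcl2l14* it was -1.42 (SE 0.52), also with overlap. A further A1 copy, *Bcl2a1d*, was at 3.83, 4.93 and 3.87 CPM against 4.33, 1.74 and 4.29 CPM. Its groups overlapped, and its log2 fold change was -0.28 (SE 0.43). The A1 copies are nearly identical and share reads, so the 4 copies were also summed, a step chosen after their values were seen. Together they stood at 12.6, 32.3 and 50.6 CPM in Tet2+/+ mice and 14.5, 4.37 and 7.0 CPM in Tet2-/- mice. Mouse 5 then lay above mouse 19, and the log2 fold change of -1.88 (SE 0.60) had an adjusted p of 0.539 by edgeR's quasi-likelihood fit (Benjamini-Hochberg). A1 is also made by mast cells and other granulocytes, and the summed TPM of the basophil, mast cell and eosinophil markers was between 285 and 402 in Tet2+/+ mice and between 88.1 and 144 in Tet2-/- mice. Without *Cpa3* these sums were between 111.5 and 124 against 52.0 and 111.1. The summed TPM of mature neutrophil markers overlapped between the genotypes. It was highest in mouse 7, at 183499, where the summed A1 copies were lowest. The part of either set of markers in the A1 values was not tested.

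**Figure D5:**
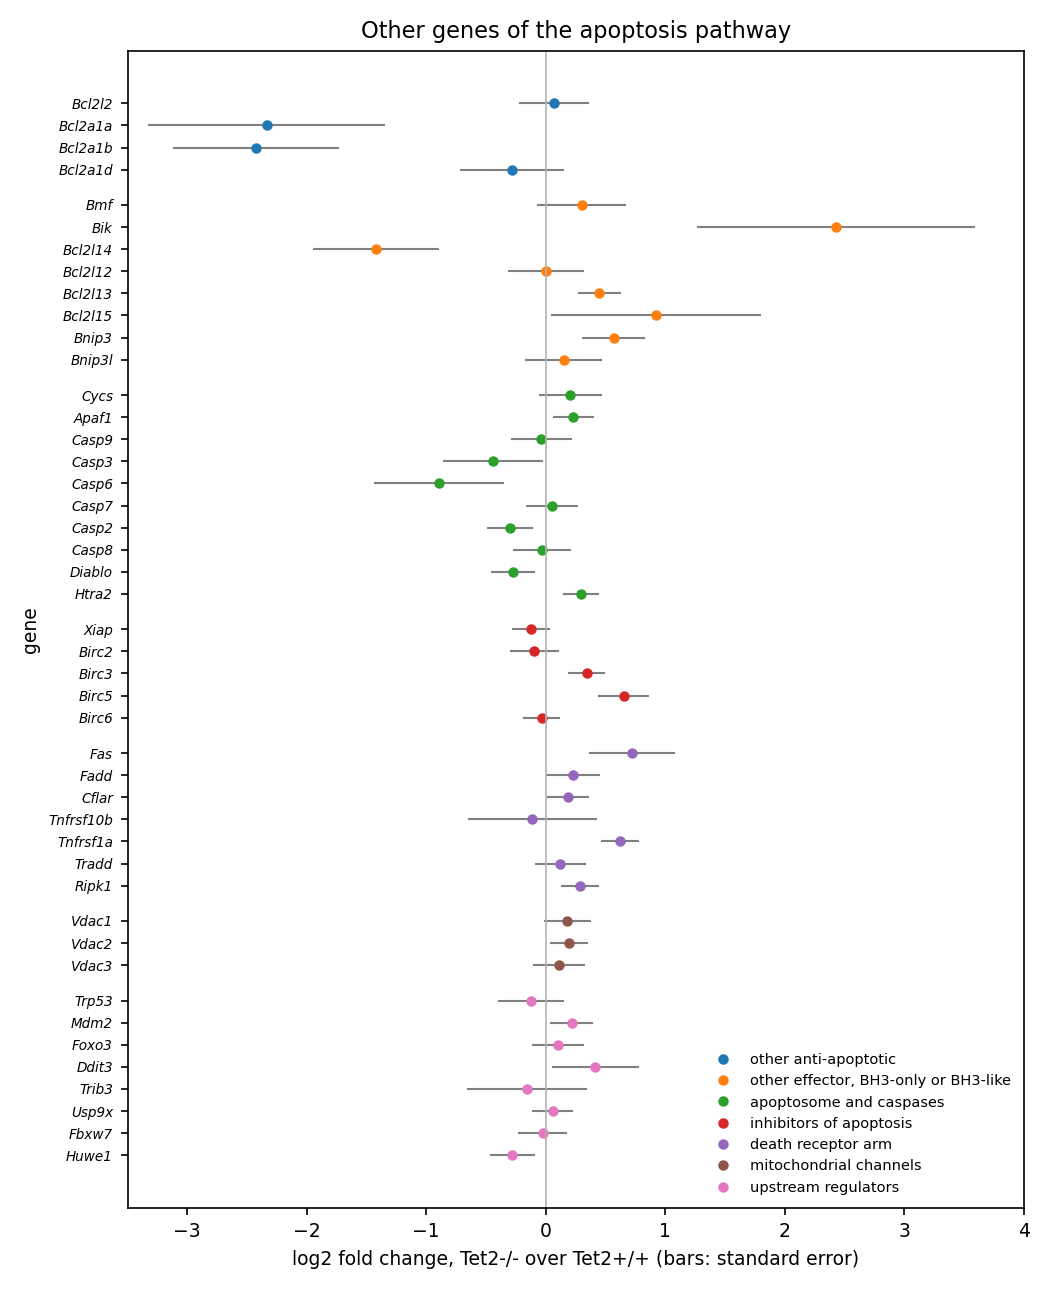
Log2 fold change of Tet2-/- over Tet2+/+ blasts (points, with standard errors as bars) for the 45 other apoptosis genes that passed the filter, colored by role. *Bcl2a1a*, *Bcl2a1b* and *Bcl2l14* lie lowest, at -2.33, -2.42 and -1.42, and no gene passed the adjusted test in edgeR.

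Since neutrophil marker levels differed widely between mice, each member's log2 CPM was set against the log2 summed TPM of those markers over the 6 mice, a relation added after the values were seen. Pearson's r was between -0.65 for *Bax* and 0.63 for *Bcl2l1*, and Spearman's rho between -0.60 for *Bcl2l11* and 0.71 for *Mcl1*. Over the 10 members, the smallest Benjamini-Hochberg adjusted p of the exact permutation tests was 0.503 for r and 0.705 for rho (n = 6 mice). Without mice 23 and 7, the farthest from the median of the markers, r changed sign for *Bcl2*, *Bcl2l1*, *Mcl1* (from 0.62 to -0.20) and *Pmaip1*, and r went from -0.42 to -0.98 for *Bcl2l11* and from -0.31 to -0.72 for *Bid*, with 4 mice left over a narrower range of the markers. The summed TPM of 8 monocyte and macrophage markers differed between mice too, at 246, 580 and 247 in Tet2+/+ and 274, 161 and 681 in Tet2-/- mice. Mice 23 and 8, with the highest sums, also had the highest CPM of their groups for *Bax*, *Bak1*, *Bid*, *Bad* and *Bcl2l11*. For *Mcl1*, *Bcl2*, *Bcl2l1*, *Bbc3* and *Pmaip1* this did not hold in both groups, and the share of all genes with this order was not determined. Mice 23 and 8 also had the lowest neutrophil marker sums of their groups, at 20213 and 42049. The part of either set of markers in this order was not tested. Within a genotype there were only 3 mice, too few for a correlation.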

How the data were processed

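RNA-seq of sorted AML blasts from 3 Tet2+/+ and 3 Tet2-/- mice was used. Per the study's methods and the submitters' processing notes, libraries of an unstranded TruSeq kit were quantified with Salmon 0.12.0 on Ensembl 94 transcripts of GRCm38. The estimated counts were deposited by the authors per transcript, without normalization between mice, and the deposited TPM values were scaled by effective length. They were added up per GENCODE M21 gene and rounded, and 112 transcripts without a gene (0.0307% to 0.0416% of reads) were left out. Genes reaching a summed, library-size-normalized count of 10 were kept, and the genotypes were compared with edgeR 4.0.16 (quasi-likelihood, TMM factors, no covariate) in R 4.3.3, with Benjamini-Hochberg adjustment over all genes tested. Transcripts were tested with limma 3.58.1 on log2(TPM + 1) at a mean of at least 1 TPM. Alternatives were DESeq2 1.42.0, length-scaled counts, other filters and scalings, and leaving out each mouse. Transcript sequences were read, and shared sequence searched with BLAST+ 2.17.0 (95% identity), in Python 3.11.15. The edgeR script was tested on simulated data with changes larger than those of any member, so that test does not show its power for changes of their size.

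The members and lists were chosen with earlier results of these data known. All members were named. Pathway genes were named at an unadjusted p under 0.05, or at a mean of at least 1 CPM, no overlap and a log2 fold change of at least 0.5 in size, and transcripts at 10% of a member's reads. Without strand, reads of bases shared with a neighboring gene are uncertain for *Bad*, *Bak1*, *Bax*, *Bcl2* and *Bid* (6.09% to 25.5% of exonic bases). The p-values measure the spread between mice. Per the study's reporting summary, each donor was represented by several recipients in the in vivo experiments. Which of these mice shared a donor is not given in the sources used here, so they may not all be independent. Estimated counts carry assignment error that the tests do not see.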

Additional observations from a re-analysis of the deposited data

How the results depend on the processing

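No BCL2 family gene passed the adjusted threshold under any alternative run (DESeq2, length-scaled counts, other filters, other scalings, or a mouse left out). Scaling by library size alone shifted the log2 fold changes of all genes to a median of -0.17, and those of the members to 0.02. Under it *Mcl1* stood at 0.30 (unadjusted p of 0.113 in edgeR) and *Bid* turned to -0.024. Over all genes, where edgeR called 10, DESeq2 called 385, edgeR on length-scaled counts 5, DESeq2 on those counts 386 and edgeR without a filter 66. With single mice left out edgeR called 0 to 7. DESeq2 called 2 pathway genes on either kind of count, and the cause was not tested. With single mice left out, the log2 fold change held both signs for *Bbc3* (-0.33 to 0.18) and *Bcl2l11* (-0.060 to 0.43). Among transcripts it did so for *Bad*-201 (-0.21 to 0.61), *Bad*-204 (-0.32 to 0.086), *Bcl2l11*-202 (-0.18 to 0.48), *Bcl2l11*-205 (-0.25 to 0.17), *Bid*-201 (-0.083 to 0.20), *Bbc3*-201 (-0.43 to 0.0100), *Bbc3*-203 (-0.066 to 0.16), *Bax*-203 (-0.22 to 0.25) and *Bax*-204 (-0.10 to 0.68). *Bax*-203 was also positive, at 0.11, in edgeR on transcript counts. Apart from *Bid* with scaling by library size alone, the other members kept the sign of their log2 fold change under every alternative run. No paired analysis was possible because the genotypes share no mouse numbers. With 3 mice per genotype the intervals of most members span a log2 unit or more, and with 95 to 237 reads per library *Bbc3* is the least precise at the level of counting.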
